A study of Mus musculus with 75 samples.

Results

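Transcription factors of tubule identity and repair and a coactivator of tubule metabolism were followed in obstructed mouse kidneys, namely Hnf4a, Pax2, Pax8, Sox4, Sox9, Ppara, Esrra and Ppargc1a. They were taken by symbol as 8 of the 32245 genes of the deposited count table, and each was read in all 75 libraries. The members and the gene lists below were chosen with earlier results of these data known. Each library is bulk RNA of 1 whole mouse kidney, collected 3 days after unilateral ureter obstruction (UUO) apart from some sham-operated controls. In UUO the ureter of the obstructed kidney is ligated and the contralateral (CL) kidney is the comparison. The libraries form 12 groups in 3 arms, and the study asked whether the vascular receptor TIE2 and the growth factor PDGFB shape the injury that follows obstruction. Groups are named as in the labels.

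In the ABTAA arm C57BL6/J or wild-type mice received human IgG Fc (8 IgG CL and 8 IgG UUO libraries) or ABTAA, an antibody that binds ANGPT2 and activates TIE2 (7 ABT CL and 7 ABT UUO libraries). In the Veptp arm, VeKO mice carry a floxed Veptp gene (symbol Ptprb), which encodes a phosphatase of TIE2, and the tamoxifen-inducible Cdh5-CreERT2 driver of endothelial cells (6 CL and 8 UUO libraries). VeKO mice were given tamoxifen before surgery. Their VeWT controls carried Veptp wt/lox and the same driver without induction (7 CL and 8 UUO libraries). Tamoxifen and genotype therefore cannot be told apart in this arm. In the Pdgfb arm, PbKO mice carry a floxed Pdgfb gene and Actb-CreERT2, a driver of all cells, and were given tamoxifen before surgery, and the PbWT controls lack Cre (4 libraries in each of the 4 groups). Both genetic arms are on a mixed background, all mice were adult and of both sexes, and all received carprofen. The study reports that the sexes were unevenly spread over some groups. Among its Pdgfb and ABTAA mice most controls were female and most knockout or treated mice were male. The PbWT CL group includes kidneys of sham-operated mice that the labels do not mark.

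HNF4A is a nuclear receptor that directs the gene programme of mature proximal tubule cells. PAX2 and PAX8 are paired-box factors that specify the nephric lineage and stay on in parts of the adult nephron. SOX4 and SOX9 belong to the SRY-box family, are active in the developing nephron and are known to be switched on in injured tubule cells during repair. PPARA and ESRRA are nuclear receptors that drive fatty acid oxidation and mitochondrial respiration, and PPARGC1A (PGC-1 alpha) is the coactivator that acts with them. The proximal tubule depends on fatty acid oxidation for transport, and loss of this programme is known in kidney injury.

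The genes lie on mm10 (GENCODE annotation) at chr2:163506808-163572910 (Hnf4a), chr19:44756045-44837871 (Pax2), chr2:24420560-24475599 (Pax8), chr13:28948919-28953713 (Sox4), chr11:112782224-112787760 (Sox9), chr15:85734983-85802819 (Ppara), chr19:6910977-6921813 (Esrra) and chr5:51454250-51567726 (Ppargc1a). Whole genes were counted, so the promoters behind the reads of a gene with several starts cannot be told apart. The 120 bases before a RefSeq start (GRCm38.p6) are shown for 4 members that carry the comparisons below. The start of Hnf4a is the downstream one, the promoter of the adult tubule. Capitals mark letters searched on both strands of each promoter, namely the HNF1 element GTTAAT in Hnf4a, the CCAAT box in Pax8 and Sox4, and the cyclic AMP element TGACGT in Ppargc1a.
Hnf4a, chr2:163547035-163547154, plus strand: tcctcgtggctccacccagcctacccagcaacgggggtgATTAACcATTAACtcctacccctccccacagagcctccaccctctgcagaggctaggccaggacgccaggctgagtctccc
Pax8, chr2:24475600-24475719, minus strand: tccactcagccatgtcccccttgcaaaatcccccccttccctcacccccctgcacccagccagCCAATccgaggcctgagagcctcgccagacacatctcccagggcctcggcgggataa
Sox4, chr13:28953700-28953819, minus strand: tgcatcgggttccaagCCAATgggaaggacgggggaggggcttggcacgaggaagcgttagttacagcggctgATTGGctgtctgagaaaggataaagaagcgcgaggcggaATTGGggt
Ppargc1a, chr5:51567726-51567845, minus strand: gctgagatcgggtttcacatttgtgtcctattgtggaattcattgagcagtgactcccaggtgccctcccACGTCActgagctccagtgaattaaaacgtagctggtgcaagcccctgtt

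Both HNF1 elements of Hnf4a were found on the minus strand, at 81 and 74 bases before the start. Sox4 held CCAAT at 104, 47 and 8 bases before its start, and Ppargc1a held TGACGT at 50 bases. Of all 32851 RefSeq promoters of 300 bases, 7.1% held GTTAAT, 7.51% held TGACGT and 37.4% held CCAAT, so these letters are common. The other motifs searched were AGGTCA (16.3% of promoters), the longer AAGGTCA that contains it (4.72%), AAAGTCCA (1.25%), ACAAAG (18.7%) and GCGTGAC (2.09%). Of 10 promoters of 7 members, 1 held AGGTCA, 2 held ACAAAG and none held AAGGTCA, AAAGTCCA or GCGTGAC. These matches describe letters and were not tested as binding sites.

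The totals of the libraries ran from 172827 to 2341800 counts with a median of 757897, and a gene's level is given as CPM, its count relative to the total of the library, scaled with TMM factors, the trimmed mean of M values. UUO and CL kidneys, and treated and control mice, were compared with edgeR's quasi-likelihood test in each arm, with an adjusted p under 0.05 over all genes tested as the threshold for a call. As the labels do not say which libraries come from the same animal, p-values measure the spread between these kidneys. The deleted genes were read first. Pdgfb in the libraries labelled PbKO was 16.8 to 25.1 CPM in CL kidneys, not below the 4.53 to 20.1 CPM of PbWT CL kidneys, and in UUO kidneys it was 33.1 to 40.9 CPM against 43.6 to 57.4 CPM in PbWT (log2 fold change -0.47, adjusted p = 0.124). Its response to obstruction was lower in PbKO than in PbWT mice (-1.26, SE 0.39, adjusted p = 0.0458). Ptprb was 12.1 to 62.8 CPM in VeKO UUO and 24.9 to 87.4 CPM in VeWT UUO kidneys (-0.69, adjusted p = 1.00). Libraries of the ABTAA and Veptp arms carry names of 2 forms, with and without an underline character (_), whose meaning the labels do not give. Within each form Ptprb had a lower mean in VeKO than in VeWT UUO kidneys, 18.2 against 27.1 CPM with an underline and 44.5 against 69.3 CPM without, and the ranges overlapped. Between the forms 39.7% of genes in the ABTAA arm and 62.4% in the Veptp arm differed in level, so within-form values stand beside the calls that changed with the form. Markers of the proximal tubule were present in every group, with none of the 4 at 0.

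Obstruction moved the members in both directions in IgG mice. Of the 7 members tested, Sox4, Sox9 and Pax8 rose and Hnf4a, Ppara, Esrra and Ppargc1a fell, while 16.3% of the 9579 genes tested rose and 18.2% fell. In whole-kidney RNA fewer cells of a type and less RNA per cell cannot be told apart. In the same UUO kidneys 4 of 4 proximal tubule markers fell, with a summed level of 1602 to 3091 CPM against 3936 to 6076 CPM in IgG CL kidneys. Markers of other tubule segments also fell, 3 of 3 of the thick limb (median -1.95), 2 of 3 of the distal convoluted tubule, 2 of 3 of intercalated cells and 1 of 3 of principal cells (median -1.02). The 5 macrophage markers and the 4 fibroblast and pericyte markers all rose, as did 2 of 4 endothelial markers. Their part in the members' changes was not tested.

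**Figure D1:**
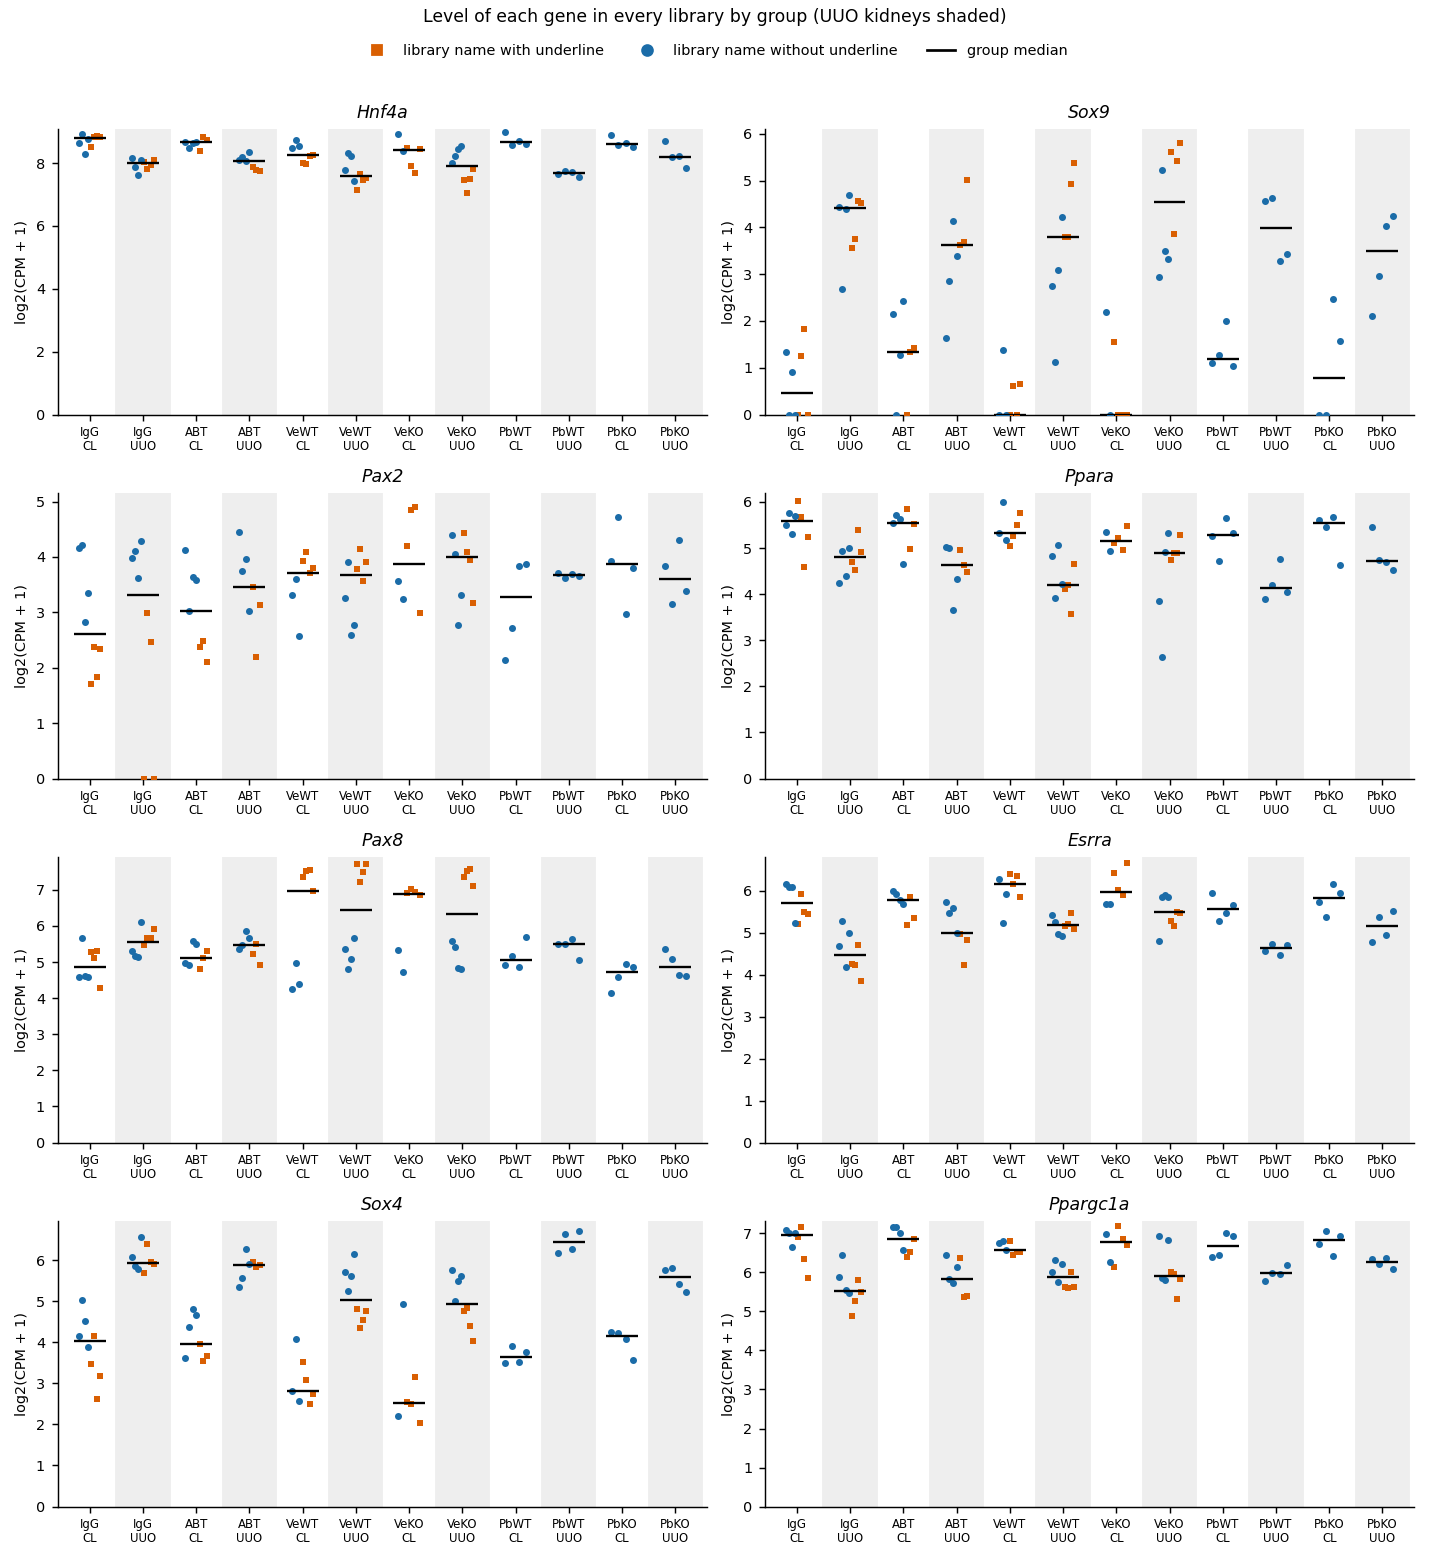
Level of each of the 8 members in each of the 75 libraries on a log2(CPM + 1) axis that starts at 0, by group, with 1 point per library, a line at the group median, UUO groups shaded, and squares for library names with an underline and circles for names without. Sox4 and Sox9 sit higher in UUO than in CL kidneys, Pax8 forms separate bands in the Veptp arm, and Pax2 stays at or below 29.0 CPM in all groups.

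Sox4 rose in UUO kidneys of all 6 kinds of mice, though among VeKO libraries of 1 form of name alone it did not pass. In IgG mice it ran from 5.14 to 31.9 CPM (median 15.3) in CL kidneys and from 50.3 to 92.8 CPM (median 59.8) in UUO kidneys, without overlap. This was a 4.24-fold rise (2.09 on the log2 scale, SE 0.23, adjusted p = 1.48e-08). In ABT mice it ran from 10.7 to 27.1 CPM (median 14.6) in CL and from 39.9 to 76.0 CPM (median 58.3) in UUO kidneys, again without overlap (1.79, SE 0.23, adjusted p = 5.29e-07). VeWT kidneys went from 4.68 to 16.0 CPM (median 5.98) in CL to 19.5 to 70.4 CPM (median 32.2) in UUO (2.22, SE 0.39, adjusted p = 0.000130). In VeKO mice the CL kidneys held 3.10 to 29.5 CPM (median 4.71) and the UUO kidneys 15.3 to 53.6 CPM (median 29.3), with a change of 2.15 (SE 0.45, adjusted p = 0.00225). Among VeKO libraries without an underline alone, 2 CL and 4 UUO, Sox4 had 1.49 (SE 0.55, adjusted p = 0.654). A single VeKO CL library, replicate 2, reached 29.5 CPM and alone overlapped the UUO kidneys.

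In the Pdgfb arm the Sox4 values were 10.2, 14.0, 10.4 and 12.7 CPM in the PbWT CL kidneys and 71.6, 97.9, 76.3 and 104.1 CPM in the PbWT UUO kidneys. All 4 obstructed kidneys stood above every CL kidney, and the rise was 7.35-fold (2.88 on the log2 scale, SE 0.22, adjusted p = 3.16e-10). The libraries labelled PbKO held 18.1, 17.7, 16.0 and 11.0 CPM in CL and 53.0, 55.2, 42.1 and 36.2 CPM in UUO kidneys (1.58, SE 0.24, adjusted p = 0.000160). Ordered by mean, all 6 UUO groups stood above all 6 CL groups, PbWT UUO led with 87.5 ± 15.9 CPM (SD, n = 4) and VeWT CL was last with 7.90 ± 4.09 CPM (SD, n = 7). PbWT UUO stood above the next group, IgG UUO, and VeKO UUO above the highest CL group, ABT CL, by more than the larger SD of each pair. No other neighbours in the order of Sox4 did. These means pool both forms of name. With an underline alone VeKO CL (5.11 CPM) stood below VeWT CL (7.08 CPM).

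Sox9 was close to absent from CL kidneys and present in UUO kidneys. In IgG CL kidneys it ran from 0 to 2.57 CPM (median 0.435), with no count in 4 of 8 libraries, and in IgG UUO kidneys from 5.39 to 24.7 CPM (median 20.4), without overlap. Summed over libraries these were 4 counts in CL and 74 in UUO kidneys, a ratio of 21.3 with an exact 95% interval from 7.98 to 80.3 that covers counting error only. The fitted log2 fold change was 4.11 (SE 0.52, adjusted p = 2.58e-08), and it depends on how so few counts are handled. In VeWT mice 3 counts in CL and 208 in UUO kidneys gave a ratio of 56.9 (19.2 to 278), and in VeKO mice 3 and 386 counts gave 62.4 (21.2 to 304). These sums come mostly from libraries with an underline. In VeKO mice the mean was 39.6 CPM in UUO against 0.480 CPM in CL kidneys with an underline and 15.5 against 1.80 CPM without, and in VeWT mice 23.9 against 0.275 CPM with and 8.00 against 0.534 CPM without. VeWT UUO kidneys ran from 1.17 to 40.6 CPM (median 12.8) and VeKO UUO kidneys from 6.70 to 55.1 CPM (median 24.9). Both rises passed the test (VeWT 5.16, SE 0.77, adjusted p = 7.70e-06, VeKO 5.38, SE 0.81, adjusted p = 3.55e-05).

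In ABT mice Sox9 ran from 0 to 4.42 CPM (median 1.53) in CL and from 2.10 to 31.1 CPM (median 11.3) in UUO kidneys, which overlapped (2.80, SE 0.47, adjusted p = 1.06e-05). The PbWT CL kidneys held 1.13, 1.402, 2.97 and 1.06 CPM and the PbWT UUO kidneys 22.8, 23.9, 8.79 and 9.72 CPM (3.29, SE 0.60, adjusted p = 4.81e-05). The CL libraries labelled PbKO held 0, 0, 4.56 and 1.99 CPM and their UUO libraries 3.31, 6.76, 15.5 and 18.1 CPM. In these the groups overlapped, and the change of 2.97 (SE 0.71, adjusted p = 0.00975) was 2.65 with an adjusted p of 0.0574 without PbKO UUO replicate 4. With all 12 groups in 1 fit it was 2.88 (adjusted p = 0.0538). By mean, the 6 UUO groups again stood above the 6 CL groups, and the gap between the lowest UUO group, PbKO UUO, and the highest CL group, ABT CL, exceeded the larger SD. Within the UUO groups no neighbours did. These means pool both forms of name. Without an underline VeWT UUO (8.00 CPM) and ABT UUO (8.59 CPM) stood below PbKO UUO (10.9 CPM).

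**Figure D2:**
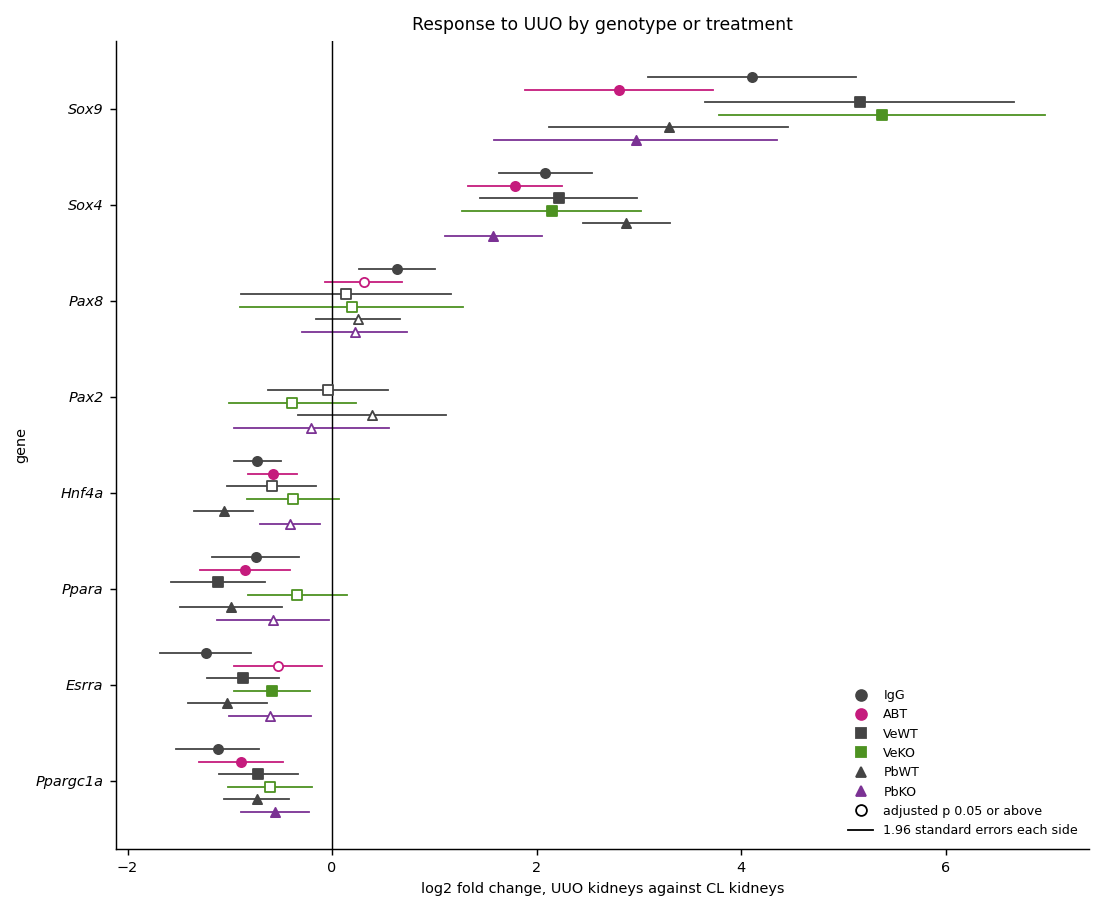
Log2 fold change of each member between UUO and CL kidneys in the 6 kinds of mice, from edgeR's quasi-likelihood fit of each arm, with bars of 1.96 SE on each side and open symbols for an adjusted p of 0.05 or above. All 6 estimates of Sox4 and of Sox9 lie above 0 and all 6 of Hnf4a, Ppara, Esrra and Ppargc1a lie below 0.

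Other genes linked to SOX9 and SOX4 in tubule repair were counted in the same comparisons. Of 24 tested, 18 rose and none fell in IgG mice (median log2 fold change 1.18, against 0.02 over all genes), 16 rose in ABT, 16 in VeWT, 9 in VeKO, 18 in PbWT and 12 in PbKO mice, and none fell in any of them. Spp1, osteopontin, rose by 2.92 (SE 0.24, adjusted p = 1.44e-11) in IgG mice. Cd24a, a surface protein of tubule progenitors, rose by 0.92, and Itgb6, an integrin of injured epithelium, rose by 0.69. Some of these genes are also expressed by cells outside the tubule. Of the other SOX family genes, 2 or 3 had counts enough to be tested in each arm, and 1 passed, Sox6, which fell in PbWT mice (-0.51, SE 0.18, adjusted p = 0.0287). Sox18, a factor of endothelium, had 0.81 (SE 0.33, adjusted p = 0.0523) there.

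Hnf4a fell in IgG, ABT and PbWT mice and did not pass the test in VeWT, VeKO and PbKO mice. It ran from 308 to 485 CPM (median 441) in IgG CL and from 196 to 282 CPM (median 254) in IgG UUO kidneys, without overlap (-0.73, SE 0.12, adjusted p = 5.56e-06). In ABT mice it ran from 330 to 454 CPM (median 404) in CL and from 214 to 323 CPM (median 267) in UUO kidneys, also without overlap (-0.58, SE 0.12, adjusted p = 0.000486). The fall in IgG mice left 0.602 of the CL level and that in ABT mice 0.670, and among ABT libraries without an underline alone the change was -0.39 (adjusted p = 0.1199). In VeWT mice the ranges of 252 to 424 CPM (median 307) and 142 to 317 CPM (median 192) overlapped (-0.59, SE 0.22, adjusted p = 0.0610). VeKO mice held 206 to 486 CPM (median 341) in CL and 132 to 374 CPM (median 240) in UUO kidneys (-0.38, adjusted p = 0.387). With the form of the library name in the fit both passed, with -0.63 (SE 0.14, adjusted p = 0.000593) in VeWT and -0.53 (SE 0.15, adjusted p = 0.0101) in VeKO mice.

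In PbWT mice Hnf4a was 505, 379.8, 418 and 393 CPM in CL kidneys and 199.6, 213, 208 and 186 CPM in UUO kidneys. The fall of 1.06 on the log2 scale (SE 0.15, adjusted p = 2.81e-06) left 0.479 of the CL level and separated the groups. The libraries labelled PbKO held 475, 383, 399 and 363 CPM in CL and 418, 288, 300.5 and 229 CPM in UUO kidneys, which overlapped (-0.41, SE 0.15, adjusted p = 0.109). By mean, PbWT CL stood first with 424 ± 56.2 CPM and PbWT UUO last with 201 ± 11.8 CPM (SD, n = 4 each). All 6 CL groups stood above all 6 UUO groups, but no neighbours in the order differed by more than the larger SD. These means pool both forms of name, and the Pdgfb arm holds names without an underline alone. Among libraries with an underline VeWT UUO (175 CPM) and VeKO UUO (178 CPM) lay below PbWT UUO, and IgG CL (434 CPM) lay above PbWT CL.

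Genes of the proximal tubule that depend on HNF4A were counted in the same comparisons. Of 30 tested, 26 fell in IgG mice (median -1.26), 24 in ABT (-0.85), 20 in VeWT (-0.96), 11 in VeKO (-0.68), 28 in PbWT (-1.71) and 12 in PbKO mice (-0.43), and none rose. Medians over all genes lay within 0.04 of 0. Lrp2, the endocytic receptor megalin, fell by 1.03 (SE 0.17, adjusted p = 9.48e-06) in IgG and by 1.34 in PbWT mice. Acsm2, a mitochondrial acyl-CoA synthetase of the proximal tubule, fell by 1.49 in IgG and by 1.74 in PbWT mice. This list holds Lrp2 and other genes that also served as markers of proximal tubule cells, so it is not separate from them. Keg1, a kidney-expressed gene, fell by 0.87 in IgG and by 1.31 in PbWT mice. Among other transcription factors of the nephron, 2 rose and 7 fell of 22 tested in IgG mice, beside the 16.3% and 18.2% of all genes. In ABT mice 2 rose and 4 fell of 22, in VeWT 1 and 4 of 28, in VeKO 1 and 1 of 28, in PbWT 2 and 9 of 24 and in PbKO mice none of 24. In IgG mice Maf, a factor of the proximal tubule, fell by 0.97 (SE 0.19, adjusted p = 0.000128), while Tfcp2l1, a factor of the distal nephron and collecting duct, had -0.18 (SE 0.15, adjusted p = 0.374) and Cux1 had -0.05 (SE 0.14, adjusted p = 0.806).

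Pax8 rose in IgG mice, and Pax2 passed no test of UUO against CL kidneys. Pax8 ran from 18.3 to 49.5 CPM (median 28.5) in IgG CL and from 34.1 to 68.1 CPM (median 46.3) in IgG UUO kidneys, with overlap (0.63, SE 0.19, adjusted p = 0.00914). Among IgG libraries without an underline alone it was 0.62 (adjusted p = 0.135), and with all 12 groups in 1 fit 0.62 (adjusted p = 0.278). In ABT mice the values were 27.2 to 47.0 CPM (median 33.6) and 29.2 to 56.5 CPM (median 43.6), with a change of 0.31 (SE 0.19, adjusted p = 0.262). The changes were 0.14 (SE 0.53) in VeWT, 0.19 in VeKO, 0.25 in PbWT and 0.22 in PbKO mice, with adjusted p between 0.372 and 0.907. Without TMM scaling the PbWT value was 0.63 (SE 0.21, adjusted p = 0.0142). The Veptp arm stood apart by the form of the library name. There Pax8 ran from 116 to 211 CPM in libraries with an underline and from 17.9 to 49.8 CPM in those without, with no overlap in any of the 4 groups (2.37 higher with an underline, SE 0.13, adjusted p = 5.24e-18). In the ABTAA arm the forms differed by -0.02 (SE 0.14, adjusted p = 0.912).

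**Figure D3:**
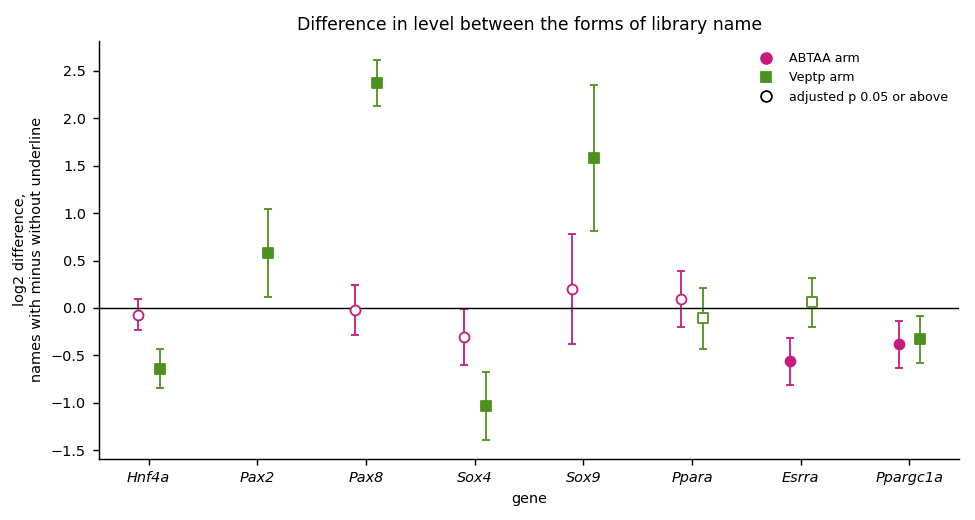
Log2 difference in level of each member between libraries whose names have an underline and those whose names have none, in the ABTAA and the Veptp arm, with bars of 1.96 SE on each side and open symbols for an adjusted p of 0.05 or above. In the Veptp arm Pax8 stands highest at 2.37 and Sox4 lowest at -1.03, and in the ABTAA arm Esrra and Ppargc1a passed.

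Within libraries of 1 form the Pax8 changes in VeWT mice were 0.24 (SE 0.16, adjusted p = 0.295) with an underline and 0.71 (SE 0.33, adjusted p = 0.174) without. In VeKO mice Pax8 rose among the libraries with an underline (0.49, SE 0.16, adjusted p = 0.0368) and had 0.04 (SE 0.43, adjusted p = 0.994) among those without. Other members also differed by form in the Veptp arm, with Sox9 higher by 1.58 (SE 0.39, adjusted p = 0.000580), Pax2 higher by 0.58 (SE 0.24, adjusted p = 0.0327), Sox4 lower (-1.03, SE 0.18, adjusted p = 7.40e-06) Hnf4a lower (-0.64, SE 0.10, adjusted p = 2.26e-06) and Ppargc1a lower (-0.33, SE 0.13, adjusted p = 0.0242) in libraries with an underline. In the ABTAA arm Esrra (-0.56, SE 0.12, adjusted p = 0.000411) and Ppargc1a (-0.38, SE 0.13, adjusted p = 0.0156) were lower in such libraries. The responses of the members to obstruction were also compared between the forms. That test called 0 members in either arm (0% of genes in the ABTAA arm and 0.369% in the Veptp arm).

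Pax2 was low in every group. It ran from 2.24 to 17.7 CPM (median 5.14) in IgG CL and from 0 to 18.6 CPM (median 9.13) in IgG UUO kidneys, and was too low to be tested in the ABTAA arm. Without the filter on low counts the changes there were 0.25 (SE 0.40, adjusted p = 0.786) in IgG and 0.27 (SE 0.36, adjusted p = 0.729) in ABT mice. In the other arms they ran from -0.39 in VeKO to 0.39 in PbWT mice, with adjusted p from 0.442 to 0.955. The means of all 12 groups lay between 7.86 ± 6.20 CPM (SD, n = 8) in IgG CL and 16.7 ± 9.70 CPM (SD, n = 6) in VeKO CL kidneys, and no neighbours in the order of Pax2 or of Pax8 differed by more than the larger SD. These means pool both forms of name. With an underline alone the mean was 3.27 CPM in IgG CL and 20.2 CPM in VeKO CL kidneys, and without one it was 12.4 and 9.62 CPM, the opposite order. No difference in Pax2 between UUO and CL kidneys was detectable at this depth.

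Of 16 tested genes of the collecting duct and nephric lineage that are linked to PAX2 and PAX8, 1 rose and 7 fell in IgG mice (median -0.60), and 1 rose and 7 fell in PbWT mice. Over all genes 16.3% rose and 18.2% fell in IgG mice, and 17.9% and 19.4% in PbWT mice. This list holds Aqp2, Aqp3 and Scnn1g, the markers of principal cells, so it is not separate from them. Aqp3, a basolateral water channel of the collecting duct, fell in 5 of the 6 kinds of mice, by 1.70 in IgG and by 1.80 in PbWT mice, and had -0.40 (SE 0.22, adjusted p = 0.320) in PbKO mice. Cdh16, kidney-specific cadherin, fell by 0.44 (SE 0.12, adjusted p = 0.00474) in IgG mice, and Aqp2, the apical water channel, had -1.02 (SE 0.47, adjusted p = 0.0917). None of 7 other PAX family genes had counts enough to be tested.

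The metabolic regulators Ppara, Esrra and Ppargc1a each fell in IgG, VeWT and PbWT mice. Among VeWT libraries without an underline alone, 3 CL and 4 UUO, none of the 3 passed, with -0.99 (adjusted p = 0.0755) for Ppara, -0.63 (adjusted p = 0.145) for Esrra and -0.57 (adjusted p = 0.173) for Ppargc1a. Ppara, the receptor of fatty acid oxidation, ran from 23.1 to 64.0 CPM (median 47.3) in IgG CL and from 17.8 to 40.8 CPM (median 27.2) in IgG UUO kidneys, with overlap (-0.75, SE 0.22, adjusted p = 0.00682). It was 24.3 to 56.4 CPM (median 45.8) and 11.7 to 31.5 CPM (median 23.7) in ABT mice (-0.85, SE 0.22, adjusted p = 0.00398). Over the 6 ABT libraries paired by number Ppara did not pass with the pair as a block (-0.71, adjusted p = 0.0570) or without it (-0.71, adjusted p = 0.104). Among libraries with an underline alone it did not pass in ABT (-0.75, adjusted p = 0.108) or in IgG mice (-0.63, adjusted p = 0.109), nor in IgG mice without TMM scaling (-0.53, adjusted p = 0.0627). In VeWT mice it was 32.2 to 62.5 CPM (median 38.8) and 10.8 to 32.6 CPM (median 17.4), which overlapped at their ends (-1.12, SE 0.23, adjusted p = 0.000924). Without the 8 Veptp libraries whose numbers cross genotypes the VeWT change did not pass (-0.96, adjusted p = 0.0640). VeKO mice held 29.5 to 43.5 CPM (median 34.8) in CL and 5.18 to 38.9 CPM (median 28.6) in UUO kidneys (-0.34, adjusted p = 0.501). In PbWT mice it was 37.3, 25.2, 49.0 and 39.1 CPM in CL and 13.9, 17.3, 26.0 and 15.6 CPM in UUO kidneys (-0.99, SE 0.25, adjusted p = 0.00323). The libraries labelled PbKO held 47.9, 43.1, 50.2 and 23.9 CPM in CL and 43.1, 25.9, 24.9 and 22.0 CPM in UUO kidneys (-0.58, adjusted p = 0.245).

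Esrra, the receptor that drives genes of respiration, ran from 35.9 to 70.2 CPM (median 51.9) in IgG CL and from 13.4 to 37.7 CPM (median 21.4) in IgG UUO kidneys (-1.23, SE 0.23, adjusted p = 4.78e-05). In ABT mice it was 35.5 to 63.1 CPM (median 54.2) and 17.8 to 52.4 CPM (median 30.9), and the change of -0.53 (SE 0.22, adjusted p = 0.0736) did not pass. With the form of the library name in the fit the same value in ABT mice had an adjusted p of 0.0153. With the 6 libraries of shared numbers blocked by number it was -0.80 (adjusted p = 0.0499). VeWT mice held 36.8 to 83.2 CPM (median 71.0) in CL and 29.3 to 43.3 CPM (median 35.5) in UUO kidneys (-0.87, SE 0.18, adjusted p = 0.000791). With every library thinned to the shallowest of its arm the VeWT change was -0.38 (adjusted p = 0.394) and did not pass. VeKO mice held 50.4 to 100.1 CPM (median 61.3) and 26.8 to 58.3 CPM (median 43.8), and the fall of 0.59 (SE 0.19, adjusted p = 0.0494) was lost in 22 of 29 fits with 1 library left out. Among VeKO libraries without an underline alone Esrra had the opposite sign, with 0.07 (adjusted p = 0.987). In PbWT mice Esrra was 61.1, 37.8, 43.1 and 49.6 CPM in CL and 22.8, 25.7, 21.2 and 25.3 CPM in UUO kidneys, without overlap (-1.02, SE 0.20, adjusted p = 0.000178). The libraries labelled PbKO held 51.8, 40.5, 70.7 and 60.7 CPM in CL and 26.5, 40.6, 30.0 and 44.8 CPM in UUO kidneys, with overlap (-0.61, SE 0.21, adjusted p = 0.0807).

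Ppargc1a, the coactivator, ran from 56.9 to 142 CPM (median 124) in IgG CL and from 28.7 to 86.2 CPM (median 44.7) in IgG UUO kidneys (-1.12, SE 0.21, adjusted p = 4.71e-05). In ABT mice it was 83.6 to 143 CPM (median 115) and 40.4 to 86.0 CPM (median 56.0), with overlap at the ends (-0.89, SE 0.21, adjusted p = 0.00141), and among libraries with an underline alone the change was -0.79 (adjusted p = 0.0651). VeWT mice held 86.0 to 111 CPM (median 94.6) in CL and 47.9 to 78.1 CPM (median 57.8) in UUO kidneys, without overlap (-0.72, SE 0.20, adjusted p = 0.00937). Without the 8 Veptp libraries whose numbers cross genotypes the VeWT change was -0.66 (adjusted p = 0.103). In VeKO mice it was 70.0 to 146 CPM (median 109) and 39.0 to 121 CPM (median 59.2), which did not pass (-0.61, SE 0.21, adjusted p = 0.0705). With the form of the library name in the fit Ppargc1a passed in VeKO mice (-0.76, SE 0.18, adjusted p = 0.00174), as it did among libraries with an underline alone (-0.97, adjusted p = 0.00129), by DESeq2 (-0.68, adjusted p = 0.0254) and with all 12 groups in 1 fit (-0.66, adjusted p = 0.0150). PbWT mice held 83.7, 85.5, 127.8 and 120.4 CPM in CL and 53.9, 62.1, 61.5 and 72.0 CPM in UUO kidneys (-0.74, SE 0.16, adjusted p = 0.000724). This call was lost without TMM scaling (-0.36, adjusted p = 0.0699). With every library thinned to the shallowest of its arm Ppargc1a did not pass in ABT (-0.53, adjusted p = 0.186), VeWT (-0.49, adjusted p = 0.224), PbWT (-0.41, adjusted p = 0.216) or PbKO mice (-0.59, adjusted p = 0.173). The libraries labelled PbKO held 104.8, 131.7, 84.4 and 120.5 CPM in CL and 79.5, 73.2, 81.6 and 66.8 CPM in UUO kidneys, which did not overlap, and the fall of 0.56 (SE 0.17) stood at an adjusted p of 0.04996, just under the threshold, and was lost in 12 of 16 fits with 1 library left out.

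By mean, Ppara ran from 45.0 ± 12.4 CPM (SD, n = 8) in IgG CL to 18.2 ± 5.36 CPM (SD, n = 4) in PbWT UUO, Esrra from 68.0 ± 20.1 CPM (SD, n = 6) in VeKO CL to 23.1 ± 8.16 CPM (SD, n = 8) in IgG UUO, and Ppargc1a from 114 ± 24.5 CPM (SD, n = 7) in ABT CL to 49.7 ± 17.4 CPM (SD, n = 8) in IgG UUO. In these means of both forms of name every CL group stood above every UUO group for each of the 3 genes. Within each form that order held for Ppara and Ppargc1a, and for Esrra with an underline. Without one, Esrra in VeKO UUO kidneys (49.7 CPM) was above PbWT CL (47.9 CPM) and close to VeKO CL (50.5 CPM). The first places also depended on the form. Esrra in VeKO CL kidneys was 76.8 CPM with an underline, while without one IgG CL (60.3 CPM) and 3 other CL groups with 55.9 to 57.6 CPM stood above it. Ppargc1a with an underline was 96.6 CPM in ABT CL and 108 CPM in VeKO CL kidneys. The last place of Esrra depended on the form too. Without an underline PbWT UUO (23.7 CPM) stood below IgG UUO (27.6 CPM). For Ppargc1a the step from VeWT CL to PbKO UUO, the groups at the border, exceeded the larger SD, as did that from PbKO UUO to PbWT UUO for Esrra. In all, 5 of 88 neighbouring pairs over the 8 members did so.

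Target genes of these regulators were counted as well. Of 30 respiratory genes that ESRRA and PPARGC1A drive, 28 fell in IgG (median -0.94), 21 in ABT (-0.61), 17 in VeWT (-0.72), 11 in VeKO (-0.45), 29 in PbWT (-1.16) and 7 in PbKO mice (-0.32), and none rose. Sdha, the flavoprotein of succinate dehydrogenase, fell by 0.84 (SE 0.13, adjusted p = 4.77e-06) in IgG mice and passed in all 6 kinds of mice. Etfb, a subunit of the electron transfer flavoprotein, fell by 0.98 in IgG and by 1.53 in PbWT mice. Cox4i1, a subunit of cytochrome c oxidase, fell by 0.72 in IgG and by 1.32 in PbWT mice. Of the targets of PPARA, 22 of 27 tested fell in IgG (median -0.86) and 19 of 27 in ABT mice (-0.70), and of 28 tested 16 fell in VeWT (-0.74), 6 in VeKO (-0.50), 23 in PbWT (-0.95) and 10 in PbKO mice (-0.47). None rose in VeKO mice, 2 rose in PbWT mice and 1 rose in each of the others. Acadm, the medium-chain acyl-CoA dehydrogenase, fell in all 6 kinds of mice, from 1.85 (SE 0.15, adjusted p = 1.35e-09) in PbWT to 0.62 (SE 0.15, adjusted p = 0.0129) in PbKO mice. Slc27a2, a fatty acid transporter and acyl-CoA synthetase, fell by 0.74 and Ech1, an enoyl-CoA isomerase, by 0.97 in IgG mice. Among partners of the regulators, 8 of 23 tested fell and 1 rose in IgG mice, beside the 18.2% and 16.3% of all genes. In ABT mice 6 of 23 fell, in VeWT 5 of 25, in VeKO 3 of 25, in PbWT 6 of 24 and in PbKO mice 2 of 24. Over all genes 12.5%, 8.38%, 3.48%, 19.4% and 2.42% fell, in the same order. Of the partners 1 rose in VeWT and 2 rose in PbWT mice, and none in ABT, VeKO or PbKO mice. Sirt3, a mitochondrial deacetylase, fell by 1.21 and Prkaa2, a catalytic subunit of AMP kinase, fell by 1.09, while the corepressor Ncor1 had -0.02 (SE 0.14, adjusted p = 0.950).

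**Figure D4:**
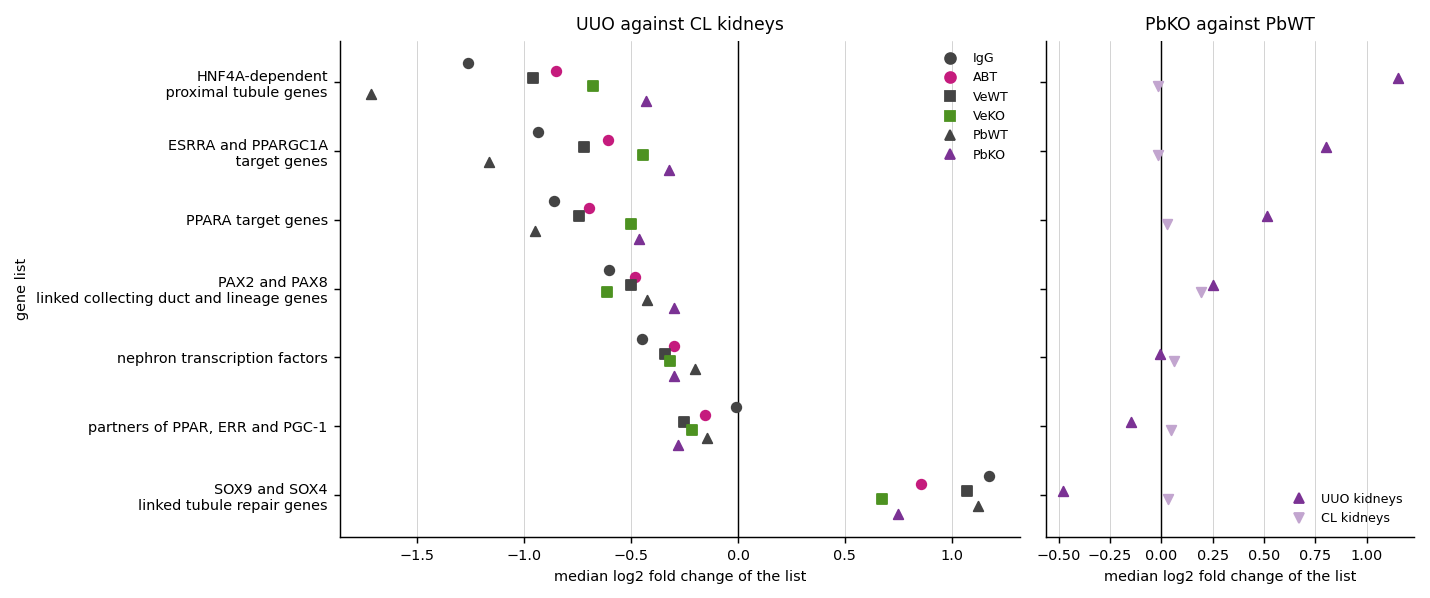
Median log2 fold change of each list of genes linked to the members, for UUO against CL kidneys in the 6 kinds of mice and, on a second axis, for PbKO against PbWT in UUO and in CL kidneys. The lists linked to HNF4A, PPARA and ESRRA with PPARGC1A have medians below 0 after obstruction in all 6 kinds of mice and above 0 in PbKO against PbWT UUO kidneys, where the repair list has a median of -0.48.

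Counted by kind of mouse, the members called were 2 that rose and 3 that fell in ABT mice (12.6% of genes rose and 12.5% fell), and 2 and 3 in VeWT mice (10% and 8.38%). In VeKO mice 2 rose and 1 fell (4.47% and 3.48%), in PbWT mice 2 rose and 4 fell (17.9% and 19.4%), and in PbKO mice 2 rose and 1 fell (3.95% and 2.42%). The VeKO count depended on the form of the library name, with 5 members called when the form was in the fit, 6 among libraries with an underline alone and 0 among those without. The genes called moved with it, from 948 to 2562, 2651 and 0. Without TMM scaling the members called were 3 that rose and 3 that fell in PbWT mice, and in VeKO and in PbKO mice 2 rose and none fell. Over all genes 4453 then rose and 1153 fell in PbWT, 613 and 242 in VeKO, and 567 and 152 in PbKO mice. Cell type markers moved in every kind of mouse. Of 4 proximal tubule markers 3 fell in ABT and in VeWT mice, 4 in PbWT mice and 2 in VeKO and in PbKO mice. Of 5 macrophage markers 5 rose in PbWT, 4 in ABT and in VeWT and 3 in VeKO and in PbKO mice. All 4 fibroblast and pericyte markers rose in ABT, VeWT and PbWT mice, and 1 in VeKO and in PbKO mice. The 3 skeletal muscle markers fell in PbWT (median -3.35) and PbKO mice (median -2.57). In the other arms they did not pass the filter on low counts. Single libraries there still held high sums, up to 476 CPM in VeKO UUO, 97.7 CPM in VeWT CL and 82.8 CPM in IgG CL kidneys. The part of cell type markers in the members' changes was not tested. These counts come from comparisons of different size and depth, and differences between kinds of mice are given by their own tests below.

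ABTAA treatment changed no member in a way that passed the test. Against IgG, 0 of the 7 members tested and 0% of the 9579 genes were called in UUO kidneys, in CL kidneys or in the response to obstruction. DESeq2 gave 0 calls in all of these and edgeR's exact test 0 in UUO and CL kidneys. At an unadjusted p under 0.05 there was 1 member in UUO kidneys, 0 in CL kidneys and 1 in the response. This was Esrra, which ran from 17.8 to 52.4 CPM in ABT UUO and from 13.4 to 37.7 CPM in IgG UUO kidneys, a log2 difference of 0.65 (SE 0.24, 95% interval 0.18 to 1.12, unadjusted p = 0.00978 from edgeR, adjusted p = 1.00). Its difference in response was 0.70 (SE 0.32, unadjusted p = 0.0321 from edgeR, adjusted p = 0.999). The other members lay between -0.40 and 0.26 in UUO kidneys.

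Loss of Veptp from endothelium likewise gave no call, with 0 of 8 members and 0% of 11916 genes in UUO kidneys, in CL kidneys and in the response. DESeq2 and edgeR's exact test, which was run in UUO and CL kidneys, also called 0 members, and in UUO kidneys they called 1 and 4 other genes. At an unadjusted p under 0.05 there was 1 member, Ppara, in UUO kidneys and in the response, and 0 in CL kidneys. Ppara was 0.47 higher in VeKO than in VeWT UUO kidneys, and the difference in response was 0.78. Its mean in VeKO against VeWT UUO kidneys was 30.2 against 17.2 CPM with an underline. Without one it was 21.7 against 22.8 CPM, the opposite order. The members' differences in UUO kidneys ran from -0.23 for Sox4 to 0.79 for Sox9. As Ptprb itself did not differ by a test that passed, these values compare the libraries labelled VeKO and VeWT.

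In the Pdgfb arm 3 members differed between obstructed kidneys of the 2 genotypes. Hnf4a and Esrra were higher and Sox4 was lower in the UUO libraries labelled PbKO than in those of PbWT mice, while 12% of the 10923 genes tested were higher and 6.6% lower. The Sox4 values of 53.0, 55.2, 42.1 and 36.2 CPM in PbKO lay below all 4 PbWT values of 71.6 to 104.1 CPM (-0.94, SE 0.18, adjusted p = 0.000460). The Hnf4a values of 418, 288, 300.5 and 229 CPM lay above all 4 PbWT values of 186 to 213 CPM (0.59, SE 0.15, adjusted p = 0.00672). The Esrra values of 26.5 to 44.8 CPM lay above the 21.2 to 25.7 CPM of PbWT (0.64, SE 0.20, adjusted p = 0.0270). Pax8 was 39.8, 32.7, 24.0 and 23.6 CPM in PbKO and 44.4, 44.2, 48.7 and 32.1 CPM in PbWT UUO kidneys, which overlapped and just missed the threshold (-0.61, SE 0.22, adjusted p = 0.0509). Pax8 passed under 6 of 10 other settings, among them edgeR's exact test (-0.64, adjusted p = 0.0407) and the compared groups alone (-0.63, adjusted p = 0.0323). Ppara (0.49, adjusted p = 0.217), Ppargc1a (0.27, adjusted p = 0.289), Sox9 (-0.34, adjusted p = 0.579) and Pax2 (0.07) did not pass.

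The call for Esrra was lost when 1 of 4 libraries was left out, with 0.63 (adjusted p = 0.0567) without PbWT UUO replicate 1, 0.58 (adjusted p = 0.0789) without PbWT UUO replicate 3, 0.59 (adjusted p = 0.0862) without PbKO UUO replicate 2 and 0.50 (adjusted p = 0.134) without PbKO UUO replicate 4. With every library thinned to the shallowest of the arm Esrra had 0.17 (adjusted p = 0.792). Without TMM scaling Sox4 and Pax8 (-0.89, adjusted p = 0.00434) were called and Hnf4a (0.29, adjusted p = 0.129) and Esrra (0.38, adjusted p = 0.190) were not. That choice moved the median of all genes by -0.27 and turned the split of all calls from 1314 higher and 721 lower to 657 higher and 2502 lower. With all 12 groups in 1 fit no member was called, with Sox4 at -0.93 (adjusted p = 0.120), Hnf4a at 0.60 (adjusted p = 0.128) and Esrra at 0.61 (adjusted p = 0.205).

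**Figure D5:**
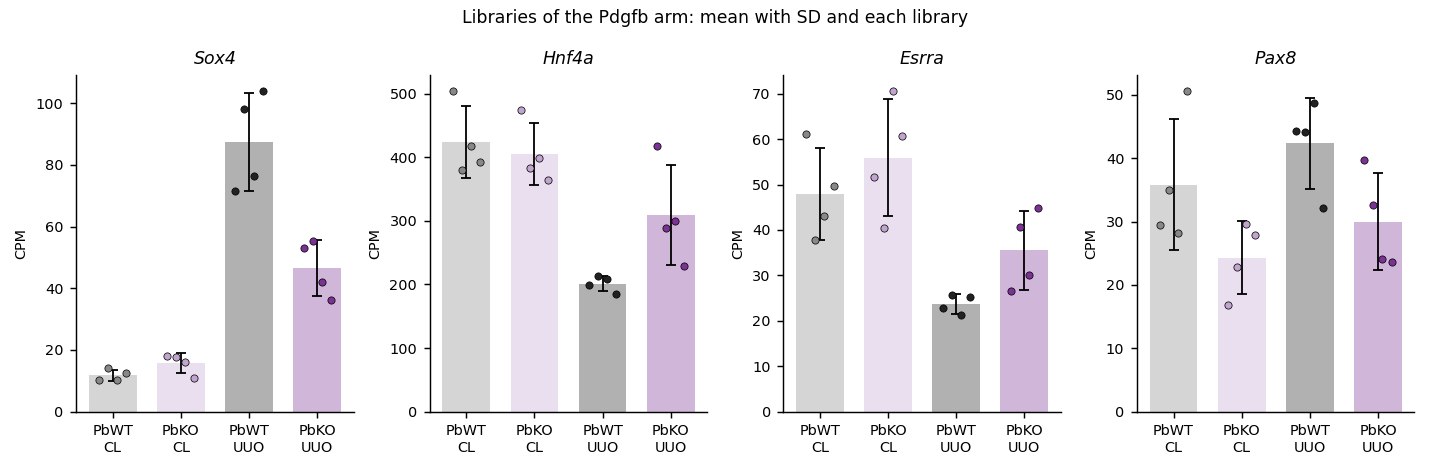
Level (CPM, each axis from 0) of Sox4, Hnf4a, Esrra and Pax8 in the 4 groups of the Pdgfb arm, with bars at the mean, error bars of 1 SD and 1 point per library (n = 4 each). In UUO kidneys Sox4 is lower and Hnf4a and Esrra are higher in the libraries labelled PbKO than in PbWT, without overlap, while Pax8 overlaps.

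In CL kidneys no member differed between the genotypes, with 0 of 8 members and 0% of genes called by edgeR's quasi-likelihood test, the exact test and DESeq2, and 1 member, Pax8, at an unadjusted p under 0.05 (-0.58). The difference between the responses to obstruction passed for Sox4 (-1.30, SE 0.35, 95% interval -1.98 to -0.62, adjusted p = 0.0191), among 8.55% of genes called. Without PbKO CL replicate 1 it was -1.18 with an adjusted p of 0.0573, and with all 12 groups in 1 fit it was -1.30 with an adjusted p of 0.381. Hnf4a had a difference of 0.65 (SE 0.21, adjusted p = 0.0548), which passed by DESeq2 (0.63, adjusted p = 0.0350). Skeletal muscle markers summed to between 25.2 and 96.3 CPM in the CL kidneys of this arm and to at most 46.4 CPM in its UUO kidneys, and their part in these differences was not tested.

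Genes linked to the members were counted in the same comparison. Of 30 HNF4A-dependent genes, 28 were higher in the UUO libraries labelled PbKO than in PbWT and none lower (median 1.15), as were 29 of 30 targets of ESRRA and PPARGC1A (median 0.80) and 16 targets of PPARA (median 0.52). Acsm2 was 1.50 higher (SE 0.31, adjusted p = 0.000971), Acadm 1.20 higher (SE 0.15, adjusted p = 5.48e-06) and Sirt3 0.89 higher (SE 0.18, adjusted p = 0.00111). Other lists went both ways. Of 24 partners of the regulators, Sirt3 among them, 2 were higher and 2 lower (median -0.15). Of 24 other transcription factors of the nephron 2 were higher and 3 lower. Of 24 repair genes 6 were lower and none higher (median -0.48), with Spp1 at -0.49 (adjusted p = 0.277) and Cd24a at -0.42 (adjusted p = 0.0697). Aqp3 was 1.16 higher (SE 0.22, adjusted p = 0.000451), and of the 3 principal cell markers only this 1 passed. In the same libraries 4 of 4 proximal tubule markers were higher (2272 to 4149 CPM summed, against 1155 to 1799 CPM). Higher too were 3 of 3 thick limb, 2 of 3 distal convoluted tubule and 2 of 3 intercalated cell markers. Lower were 2 of 4 endothelial markers, while 3 of 4 fibroblast and pericyte markers were lower (126 to 258 CPM against 320 to 433 CPM) and 3 of 5 macrophage markers were lower (139 to 160 CPM against 185 to 276 CPM). Their part in the members' differences was not tested.

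The genes whose levels went most closely with each member over the 75 libraries were taken after the mean of each arm and form of name was removed, on log2(CPM + 1), among 9554 genes. All libraries share the contrast of UUO and CL kidneys, so these are descriptions. Hnf4a went with Scp2 (Pearson's r 0.94), Fmo2 and Kcnj15 (0.92 each). Sox4 went with C3, Pea15a and Vim (0.91 each), and Sox9 with Cd44, Klf6 (0.87 each) and Ubd (0.86). Ppara went with Asl (0.73), Chrna4 and Pgm1 (0.72 each), Esrra with Sod2, Uqcrfs1 (0.83 each) and Gcdh (0.82), and Ppargc1a with Slc16a7, Slc12a1 (0.85 each) and Slc12a3 (0.84). Pax8 reached 0.66 with Map3k1 and Aplnr and 0.61 with Cep192, and Pax2 reached 0.49 with 1700088E04Rik, 0.44 with Supt7l and 0.43 with Ripor1. Among the members themselves Hnf4a and Sox4 had an r of -0.83, Hnf4a and Esrra 0.74 and Sox4 and Sox9 0.76.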

How the data were processed

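Whole-kidney RNA of 75 libraries was measured, and the authors deposited 1 table of raw counts per gene and library. Per the submitters' processing notes and the study's methods, the authors merged the wells of each sample, mapped reads with STAR 2.7.3a to mm10, removed duplicates by molecular identifier with UMI-tools 1.1.4 and counted them on genes with featureCounts (Subread 1.4.6-p5). The annotation is not given in the sources used here. Each of the 75 columns carries the title of its sample. The shallowest library holds 172827 counts, and low genes such as Sox9 and Pax2 rest on few counts in many libraries.

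The counts went into edgeR 4.0.16 (R 4.3.3). A separate fit was made per arm, with its 4 groups as the model, TMM scaling, the default filter on low counts, glmQLFit and glmQLFTest, with Benjamini-Hochberg adjustment over all genes tested in the arm (9579, 11916 and 10923) and 0.05 as the threshold. The SE was taken from the F value, as the absolute log2 fold change over the root of F, and intervals are 1.96 SE on each side. CPM levels use TMM factors over all 75 libraries, and a pseudocount of 1 CPM was used for plots and likeness alone. The study's methods name edgeR's exact test. The procedure was tested on simulated data. Figures and promoters were made with Python 3.11.15, numpy 2.4.6, pandas 2.3.3 and matplotlib 3.10.9.

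The members, gene lists and motifs were chosen with earlier results of these data known. All 8 members were named, with the 3 genes of highest mean CPM in each list, among those tested in all arms, and the 3 genes most like each member. Markers and lists are counted with no test of the list. The alternatives were each library left out, DESeq2 1.42.0, the exact test, legacy dispersions, no TMM scaling, no filter or a mean count of at least 20, thinning to the shallowest library, a fit of only the groups compared or of all 12, covariates for Xist or for the form of library name, each form by itself, and the shared numbers as a block. Names of 3 ABT UUO libraries carry the same number as names of 3 ABT CL libraries. After group means were subtracted, these pairs had correlations of 0.386, 0.199 and 0.159, and different numbers -0.12 on average. With 3 libraries in a group, subtracting the mean ties these values to each other, so they cannot show that a number marks an animal. The block by number takes such pairs as an assumption. Libraries of 1 group differed from each other by more than counting noise.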

Additional observations from a re-analysis of the deposited data

Results flagged for a closer look

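Chance alone is expected to mark about 1 in 20 groups as holding a library apart from the rest, and 2 of the 96 groups tested (each member in each group of 4 to 8 libraries) did so. Sox4 in VeKO CL replicate 2 was 29.5 CPM, while the next library of its group held 7.91 CPM and the lowest 3.10 CPM. Sox9 in VeWT CL replicate 2 was 1.60 CPM, against 0.563 CPM in the next library, and rests on a single count.

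The response of Sox4 to obstruction differed between genotypes of the Pdgfb arm by the test of the difference itself, with -1.30 in the libraries labelled PbKO against PbWT. What lies behind it was not tested.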

How the results depend on the processing

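Of 198 counts of members called under another setting, 175 stayed within 1.5 times the count as reported. Thinning every library to the shallowest of its arm left 3 members called in IgG, 2 in ABT, 1 in VeWT, 0 in VeKO and 1 in PbKO mice for UUO against CL, and 2 for the difference in response in the Pdgfb arm. After thinning 3 members passed the filter for ABTAA, 5 for Veptp and 6 for Pdgfb mice. No member still tested in IgG mice lost its call, and in VeKO mice Esrra did, while Sox4 and Sox9 were not tested there. In VeWT mice 1 member was called among libraries without an underline and 3 without the 8 libraries whose numbers cross genotypes. In VeKO mice the count was 1 by the exact test and with the compared groups alone, 5 with the form of name as covariate (also without VeKO CL replicate 2, added after seeing the data), 6 with an underline alone, 0 without, and 6 with the replicate block. In PbKO mice it was 1 with a mean count of at least 20, with the compared groups alone and with all 12 groups in 1 fit. All 12 groups in 1 fit gave 0 members for PbKO against PbWT UUO kidneys and 0 for the difference in response, for which DESeq2 and Xist as covariate each gave 2. With 1 library left out the counts ran from 6 to 7 in IgG, 4 to 6 in ABT, 5 to 6 in VeWT, 2 to 4 in VeKO, 6 to 6 in PbWT and 1 to 3 in PbKO mice, from 2 to 4 for PbKO against PbWT UUO kidneys and from 1 to 2 for the difference.

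In ABT mice the replicate block over the 6 libraries with shared numbers left 4 members called, against 2 for the same 6 without it (added after seeing the data). Against these 6 unblocked, the block gained Esrra (-0.80, adjusted p = 0.0499) and Ppargc1a (adjusted p = 0.0622 without the block) and changed no other call. Ppara was called neither with the block (-0.71, adjusted p = 0.0570) nor without it (-0.71, adjusted p = 0.104), and Sox9 was too low there to be tested. The Veptp numbers were not taken to pair the kidneys, as 1 of 8 pairs correlated at 0.0583. The other 7 correlated at 0.109 to 0.427, against -0.03 for different numbers, and 4 of the 8 numbers carry opposite genotypes.

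Of 728 values of single members, 638 kept their direction and side of the threshold, and 15 changed sign, all of them of changes that did not pass apart from Esrra in VeKO mice. Pax2 in VeWT mice was 0.00073 by DESeq2, 0.0016 by the exact test, 0.10 without TMM, 0.0243 with the form of name, 0.0409 with an underline alone and 0.0187 without VeKO CL replicate 2 and with the form. Pax8 in VeKO mice was -0.0523 with Xist, and Esrra there 0.0680 without an underline. Without TMM, PbKO against PbWT UUO kidneys gave -0.20 for Pax2 and -0.0088 for Ppargc1a. The difference in response of Ppargc1a was -0.12 without TMM and -0.19 with thinning, and that of Pax8 0.50 with thinning, 0.0444 with Xist and 0.0149 with all 12 groups. With 1 library left out, signs changed for Pax2 in VeWT (-0.14 to 0.0573) and PbKO mice (-0.60 to 0.0366) and between PbKO and PbWT UUO kidneys (-0.32 to 0.24), for Pax8 in VeWT mice (-0.0595 to 0.32) and in the difference in response (-0.26 to 0.10), and for Sox9 in that difference (-0.79 to 0.34). Without TMM the median of all genes moved by 0.21 in IgG, 0.14 in ABT, 0.15 in VeWT, 0.11 in VeKO and 0.37 in PbWT mice, and the share of calls that were higher from 47.3% to 69.7% in IgG and from 48.1% to 79.4% in PbWT mice. The cause of these changes was not tested. Sox9 in CL kidneys and Pax2 rest on few counts in many libraries.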
